A study of Mus musculus with 6 samples.

Results

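Small leucine-rich proteoglycans are secreted proteins of connective tissue, and 7 of their genes were followed in the mouse trigeminal ganglion: Ogn, Dcn, Lum, Bgn, Fmod, Prelp and Aspn. The genes were chosen by name, with earlier results of these data known. Each had 1 row in the deposited table of 13673 genes, and each was among the 12238 genes tested. The series holds 6 libraries of ganglion tissue from mice of WT genotype, taken on day 3. In 3 of them the mice had been injected with CFA, complete Freund's adjuvant, an oil emulsion that raises local inflammation, and in the other 3 with Saline. The labels name neurons and glia as the cells of the tissue, and say nothing of strain, age, sex or the number of animals behind a library. The series title concerns the transcription factor IRF7 and interferon beta in inflammatory pain. Levels are given as FPKM, a count of sequenced fragments corrected for transcript length and for library size, so that genes can be compared per length.

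Proteins of this family carry a core of leucine-rich repeats that binds collagen fibrils and helps to set their diameter and spacing. Decorin (Dcn) and biglycan (Bgn) carry chondroitin or dermatan sulfate chains, while lumican (Lum) and fibromodulin (Fmod) can carry keratan sulfate. Released from the matrix, several members also bind growth factors such as TGF-beta, and biglycan and decorin can act on Toll-like receptors. In peripheral nerves and ganglia such proteins come mainly from fibroblasts of the connective tissue sheaths and of the meninges.

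In ganglia of CFA mice mean Ogn FPKM was 0.715 times that in ganglia of saline mice, and Fmod was higher by 49.3%. Bgn was higher by 18.4%. In these 3 genes the CFA and saline libraries did not overlap. None of the 7 passed an adjusted p below 0.05 over all genes tested (limma on log2(FPKM + 1) with Benjamini-Hochberg adjustment), a threshold that 0.0572% of all tested genes passed. Dcn, Lum, Prelp and Aspn overlapped between the groups.

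Of the 7 genes 3 had an unadjusted p below 0.05, against 8.32% of all genes tested, 5.37% higher and 2.95% lower. Groups without overlap were found in 3 of 7, against 14.5% of all genes tested, 7.89% higher and 6.66% lower. Because the 7 genes were chosen with earlier results of these data known, both counts are a description and no test of the family. The family was split in direction, with 3 genes higher and 4 lower under CFA. Its median log2 fold change was −0.138, beside 0.00521 over all genes tested. Each log2 fold change is the CFA mean less the saline mean of log2(FPKM + 1), given with its standard error (SE). Adding 1 shrinks the difference where FPKM is low.

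The stretches of DNA before the transcription start of the 3 genes without overlap are printed here as a description. Any part of their motifs in the differences between the groups was not tested. RefSeq promoter sequences (GRCm38.p6) were at hand for 5 of the 7 genes, Ogn, Bgn, Fmod, Prelp and Aspn. Each run holds the 250 bases before the RefSeq start on the + strand, at chr13:49607765-49608014 for Ogn, chr1:134037004-134037253 for Fmod and chrX:73483351-73483600 for Bgn. Capitals mark matches, on either strand, to the TATA box (TATAAA), the CCAAT box (CCAAT as letters), the GC box (GGGCGG), the AP-1 motif (TGANTCA) and a SMAD-binding motif (CAGAC). Positions are those of the leftmost base of a match, with −1 the base before the start.
Ogn: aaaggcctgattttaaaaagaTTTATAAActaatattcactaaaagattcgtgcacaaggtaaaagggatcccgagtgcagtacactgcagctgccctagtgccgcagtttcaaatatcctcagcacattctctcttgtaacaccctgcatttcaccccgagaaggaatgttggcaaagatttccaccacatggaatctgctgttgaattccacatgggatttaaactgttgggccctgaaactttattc
Fmod: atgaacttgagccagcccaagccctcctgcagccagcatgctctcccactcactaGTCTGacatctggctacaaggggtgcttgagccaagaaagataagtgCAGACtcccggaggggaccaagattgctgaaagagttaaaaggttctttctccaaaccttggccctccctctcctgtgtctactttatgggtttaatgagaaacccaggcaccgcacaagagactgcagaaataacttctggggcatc
Bgn: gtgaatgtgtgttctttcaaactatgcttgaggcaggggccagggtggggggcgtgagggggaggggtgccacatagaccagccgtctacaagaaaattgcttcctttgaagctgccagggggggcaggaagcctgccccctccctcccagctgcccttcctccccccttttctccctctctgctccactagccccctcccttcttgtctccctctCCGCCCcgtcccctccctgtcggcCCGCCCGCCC

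The Ogn window held TATAAA on both strands in 1 overlapping run, at −229 and −227 from the start, a motif present in 13% of 27025 promoter windows of the same length. The Fmod window held CAGAC at −195 on the opposite strand and at −148. That motif was present in 42.1% of windows. The Bgn window held GGGCGG on the opposite strand at −34, −10 and −6, the last 2 overlapping. GC boxes were present in 32.9% of windows. No window of these 5 genes held TGANTCA (6.87% of windows). Prelp and Aspn each held CCAAT once (34.5% of windows), Prelp also held CAGAC once, and Aspn held TATAAA at 2 positions. The window of Bgn was 64.4% G and C, those of Fmod and Ogn 51.2% and 42.0%, and the median over all windows was 52.0%.

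Several members are neighbours in the genome. On GRCm38, Dcn lies on chromosome 10 at 97479609 to 97518143 and Lum 46985 bases further on, at 97565128 to 97572703, both on the + strand. On chromosome 13, Aspn spans 49544443 to 49567565 and Ogn spans 49608046 to 49624501, both on the + strand with 40481 bases between them. Both lie inside the span of Cenpp on the other strand. Cenpp exons share 7 bases with Aspn exons and 0 with Ogn exons, and Cenpp itself was at 0.535 FPKM with CFA and 0.644 with saline. On chromosome 1, Prelp (133910304 to 133921414, − strand) and Fmod (134037254 to 134048277, + strand) are 115840 bases apart. Exons of Prelp share 350 bases with the antisense gene Gm15851, and the sources used here do not say whether reads were counted by strand. Bgn lies on chromosome X at 73483602 to 73495933 on the + strand.

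The order of the levels was nearly fixed. Ogn, which encodes osteoglycin (mimecan), was the most abundant member in all 6 libraries and ranked 157th by mean FPKM among the 13673 genes of the table. Dcn came next at rank 378 and then Lum at rank 974. The ranges of Ogn, Dcn and Lum did not touch, with a median ratio of 1.79 between Ogn and Dcn and of 2.20 between Dcn and Lum. Bgn and Fmod were not separated: Bgn was above Fmod in 4 of 6 libraries, and Fmod was above Bgn in CFA replicates 2 and 3. Prelp lay below both in each library, although its range overlapped that of Fmod, and Aspn was lowest throughout.

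**Figure D1:**
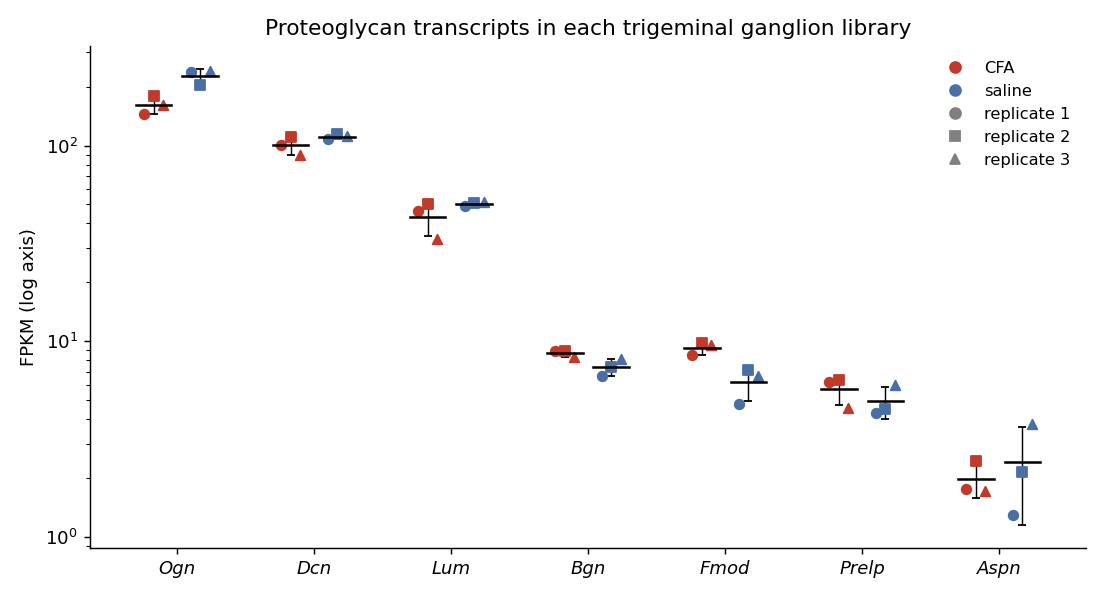
FPKM of the 7 genes in each library on a log axis, with CFA (red) left of saline (blue), marker shape for the replicate, a bar for the group mean and a whisker for the SD (n = 3 per group). The groups are apart for Ogn, Bgn and Fmod and overlap for the other 4 genes.

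Ogn stood at 144.5, 179.7 and 161 FPKM in CFA replicates 1 to 3, against 237, 203 and 239 FPKM in saline replicates 1 to 3. Every CFA library was below every saline library. The means were 162 ± 17.6 FPKM with CFA and 226 ± 20.4 with saline (SD, n = 3 each), a ratio of 0.715. The log2 fold change was −0.48 (SE 0.112, 95% interval −0.75 to −0.217), with an unadjusted limma p of 0.00389 and an adjusted p of 0.287. By unadjusted p, Ogn ranked 166th among the genes tested. Fewer cells that make a transcript and less transcript per cell cannot be told apart in bulk tissue, here or for any other gene below.

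Fmod, a keratan sulfate proteoglycan that binds type I collagen, went the other way. It stood at 8.47, 9.81 and 9.56 FPKM in the CFA libraries, against 4.8, 7.17 and 6.66 FPKM in the saline libraries. The lowest CFA value was above the highest saline value, and saline replicate 1 was the lowest of all. The means were 9.28 ± 0.711 FPKM with CFA and 6.21 ± 1.25 with saline (SD, n = 3 each), a ratio of 1.49. The log2 fold change was 0.52 (SE 0.144, 95% interval 0.18 to 0.868), with an unadjusted limma p of 0.00908 and an adjusted p of 0.416. Without saline replicate 1 it was 0.375.

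Bgn, a chondroitin or dermatan sulfate proteoglycan closely related to decorin, stood at 8.91, 8.95 and 8.30 FPKM in the CFA libraries, against 6.64, 7.36 and 8.09 FPKM in the saline libraries. The groups were apart by a narrow margin, between CFA replicate 3 and saline replicate 3. The log2 fold change was 0.22 (SE 0.0918, 95% interval 0.000113 to 0.439), with an unadjusted limma p of 0.0499 and an adjusted p of 0.599. That unadjusted p was under 0.05 in 7 of 18 alternative fits.

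Dcn, which also binds TGF-beta, stood at 101 FPKM, 110.8 and 89.5 in the CFA libraries, against 107, 114 and 111 in the saline libraries. The CFA libraries spread more widely, and CFA replicate 2 lay inside the saline range. The log2 fold change was −0.15 (95% interval −0.371 to 0.0753), with a limma adjusted p of 0.694. Lum, a regulator of collagen fibril spacing, stood at 46.1, 50.4 and 33.4 FPKM in the CFA libraries, against 49.2, 50.8 and 51.8 FPKM in the saline libraries. Its log2 fold change was −0.24 (95% interval −0.60 to 0.119, limma adjusted p = 0.694). CFA replicate 3 held the lowest value of both genes, and without it the log2 fold changes were −0.0683 for Dcn and −0.0673 for Lum.

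Prelp, whose protein anchors basement membranes through heparan sulfate, stood at 6.19, 6.32 and 4.59 FPKM in the CFA libraries, against 4.32, 4.52 and 5.97 FPKM in the saline libraries. CFA replicate 3 fell among the saline values and saline replicate 3 near the CFA values. The log2 fold change was 0.17 (95% interval −0.194 to 0.543, limma adjusted p = 0.749), and without both libraries numbered 3 it was 0.421. Aspn, which encodes the collagen-binding and TGF-beta-binding asporin, stood at 1.77, 2.44 and 1.73 FPKM in the CFA libraries, against 1.30, 2.16 and 3.77 FPKM in the saline libraries. Saline replicate 3 was highest and saline replicate 1 lowest, so that the saline libraries enclosed the CFA libraries. The log2 fold change of −0.14 (95% interval −0.768 to 0.491, limma adjusted p = 0.886) turned to 0.136 without saline replicate 3.

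**Figure D2:**
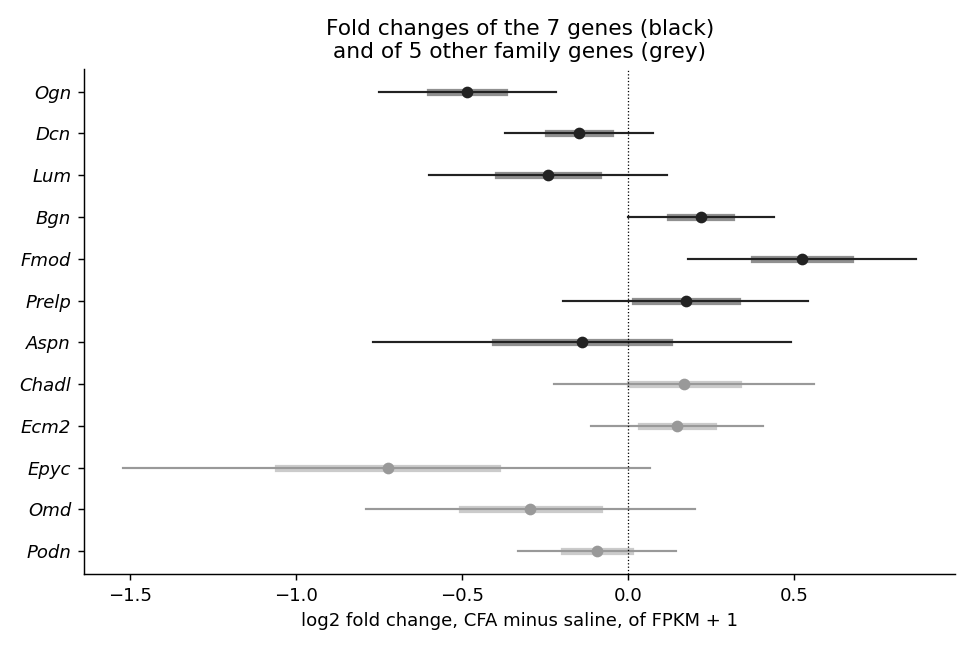
Log2 fold changes (CFA minus saline, of FPKM + 1) of the 7 genes in black and of the 5 other family genes tested in grey, with thick bars for the SE and thin bars for the 95% interval of the limma fit. The intervals of Ogn, Fmod and Bgn leave out 0, that of Bgn with its lower end at 0.000113, and those of the other genes include it.

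Summed over the 7 genes, the family held 317, 368 and 308 FPKM in the CFA libraries, against 411, 389 and 427 FPKM in the saline libraries. The groups did not overlap, with means of 331 ± 32.5 with CFA and 409 ± 18.9 with saline (SD, n = 3 each; exact permutation test, two-sided p = 0.1, the smallest that 3 against 3 allows). Most of the gap lay in Ogn. Leaving Ogn out, the sums averaged 169 ± 21 FPKM with CFA and 183 ± 7.79 with saline (exact permutation p = 0.5, n = 3 each). The family took 0.116% to 0.137% of each CFA library's FPKM total and 0.145% to 0.163% of each saline library's.

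As shares of the family's summed FPKM, which move together because Ogn makes up so much of the sum, Ogn made 45.6%, 48.8% and 52.3% in the CFA libraries, against 57.7%, 52.1% and 56.0% in the saline libraries, with an overlap at CFA replicate 3. Fmod made 2.81 ± 0.251% with CFA and 1.52 ± 0.338% with saline (SD, n = 3 each). Bgn made 2.65 ± 0.196% with CFA and 1.80 ± 0.16% with saline, and Prelp 1.72 ± 0.231% with CFA and 1.2 ± 0.177% with saline. In these 3 genes the shares did not overlap, although the FPKM of Prelp itself did. The shares are a description, since a lower Ogn raises the share of every other member.

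**Figure D3:**
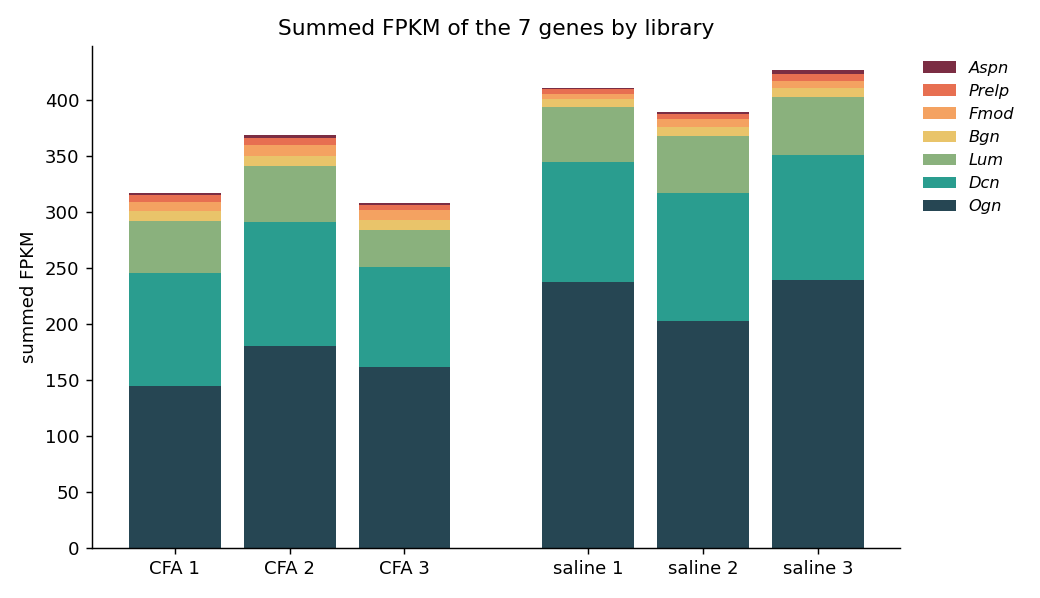
Summed FPKM of the 7 genes in each library, CFA left of saline, with 1 colour per gene. The CFA bars reach 308 to 368 FPKM and the saline bars 389 to 427, and Ogn makes 45.6% to 57.7% of each bar.

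A ratio of 2 genes within a library does not depend on how the library was scaled. Ogn was 17.1, 18.3 and 16.9 times Fmod in the CFA libraries, against 49.4, 28.3 and 35.9 times in the saline libraries. The CFA libraries were close to each other in this ratio and the saline libraries were spread, without overlap. As a log2 ratio of Fmod to Ogn, CFA was higher by 1.08. This pair was known to differ in opposite directions when it was chosen, so the value is a description. Ogn was 16.2, 20.1 and 19.4 times Bgn in the CFA libraries, against 35.7, 27.5 and 29.6 times in the saline libraries.

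Of the 21 pairs of members, 9 had log2 ratios without overlap between the groups, against 15.5% of all pairs of tested genes with FPKM above 0 in every library. The pairs are not independent, since each gene enters 6 of them, and 6 of the 9 hold Ogn or Fmod. All of the 9 but Lum to Prelp hold Ogn, Fmod or Bgn, the genes without overlap by themselves. The count thus largely restates that result, and the share over all pairs is not a like baseline for it. Each of Ogn, Dcn and Lum was lower relative to each of Bgn and Fmod in CFA libraries, for example Dcn to Fmod at 3.43 ± 0.183 with CFA and 4.18 ± 0.263 with saline (log2 ratio, SD, n = 3 each). Relative to Prelp, Ogn and Lum were lower without overlap, and the last such pair was Fmod to Aspn, higher with CFA. The ratio of Dcn to Lum overlapped, at 1.23 ± 0.168 with CFA and 1.13 ± 0.0319 with saline. Bgn to Fmod overlapped too, at −0.0869 ± 0.144 with CFA and 0.262 ± 0.215 with saline. No exact permutation p over these pairs can go below 0.1 (n = 3 per group).

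**Figure D4:**
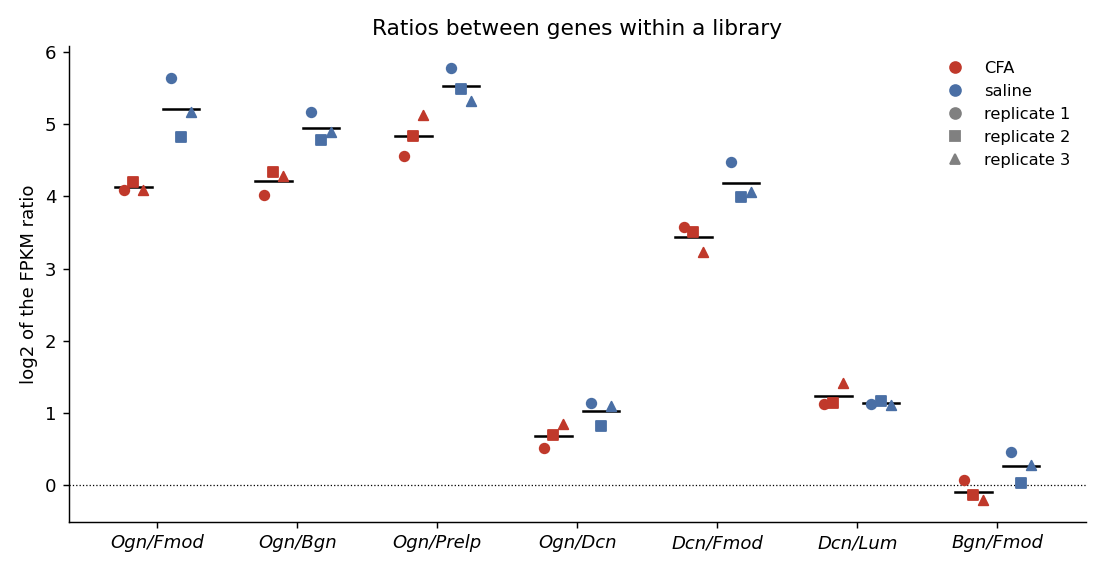
Log2 ratios of FPKM between pairs of the 7 genes within each library, with CFA (red) left of saline (blue), marker shape for the replicate and a bar for the group mean. Ogn to Fmod, Ogn to Bgn, Ogn to Prelp and Dcn to Fmod are apart between the groups, and the other 3 pairs shown overlap.

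Over the 6 libraries, Dcn and Lum had the strongest correlation of any pair of members (Pearson r of log2(FPKM + 1) = 0.964), and their deviations from the group means correlated at 0.950. Bgn and Fmod correlated at 0.882 and Ogn and Fmod at −0.789. Within groups, the deviations of Ogn and Fmod correlated at −0.112, and those of Bgn and Aspn at 0.939, close to those of Dcn and Lum. These are descriptions over 6 points that share library preparation and group, with no test.

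Genes outside the family with the most similar pattern over the 6 libraries were ranked among 7294 genes that averaged 5 FPKM or more. For Ogn they were Frs2 (r = 0.989) and Zfp948 (0.981), for Fmod Cd2bp2 (0.998) and Oasl2 (0.991), and for Bgn 1110008F13Rik (0.988) and Cmss1 (0.977). They were Paqr9 (0.994) and Clip3 (0.991) for Dcn, Ass1 (0.999) and Lhfpl3 (0.998) for Lum, Sccpdh (0.984) and Asic1 (0.979) for Prelp, and Hspa4l (0.997) and Copa (0.992) for Aspn. With 6 points such values are common: 112 genes had r above 0.9 with Ogn, 96 with Fmod and 253 with Dcn.

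Of 12 other family genes listed, 7 had a row and 5 could be tested. None had an unadjusted p below 0.05, with 2 higher and 3 lower. Epyc and Omd were picked for description after their values were seen. Epyc, which encodes the cartilage proteoglycan epiphycan, stood at 0.462, 0.693 and 0.480 FPKM in the CFA libraries, against 1.23, 0.692 and 3.38 FPKM in the saline libraries. Omd, which encodes osteomodulin and lies between Aspn and Ogn, stood at 1.80, 2.62 and 1.81 FPKM in the CFA libraries, against 1.90, 2.74 and 3.84 FPKM in the saline libraries. As with Aspn, saline replicate 3 was the highest library in both. In the same library skeletal muscle markers summed to 214 FPKM, with 3.07 to 55.7 FPKM in the CFA libraries and 6.03 and 19.0 in the other saline libraries, and their part in these values was not tested. Saline replicate 3 was also highest in the summed pituitary hormone genes, at 4842 FPKM, with 233 to 2849 FPKM in the CFA libraries and 189 and 2500 in the other saline libraries. Its neutrophil markers summed to 574 FPKM, with 59.1 to 328 FPKM in the CFA libraries and 61.0 and 84.7 in the other saline libraries.

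Around the family, 8 lists of related genes gave 94 tested genes, of which none passed over all genes. At an unadjusted p below 0.05, 7 were higher and 5 lower, 12.8% of the 94 against 8.32% of all genes tested. The lists too were chosen with earlier results known, so this share is a description. Collagens, the main ligands of these proteoglycans, were the list with most such genes. The list holds fibrillar, fibril-associated and type VI collagen chains. Of 11 tested, 9 were higher and 2 lower, and 4 were higher at an unadjusted p below 0.05: Col1a1, Col3a1, Col6a1 and Col6a2. Col6a1, a chain of the type VI collagen that biglycan and decorin bind, stood at 9.70, 8.14 and 8.21 FPKM in the CFA libraries, against 4.69, 6.37 and 5.73 FPKM in the saline libraries (limma, unadjusted p = 0.00322). Col1a1 stood at 28, 26.4 and 26.1 FPKM with CFA, against 20.6, 21.3 and 21.7 with saline (limma, unadjusted p = 0.00216). The list's median log2 fold change was 0.092.

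Genes of cross-linking and fibril assembly had 1 of 13 tested below an unadjusted p of 0.05. This was Lox, the lysyl oxidase that cross-links collagen and elastin, at 2.66, 3.27 and 2.24 FPKM in the CFA libraries, against 5.45, 5.26 and 8.54 FPKM in the saline libraries. Lox was lower in every CFA library, with a log2 fold change of −0.98 (SE 0.192, limma adjusted p = 0.221). Of the 13, 9 were higher and 4 lower, with a median of 0.113, and none of the 9 had an unadjusted p below 0.05.

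Among 10 tested proteases that cleave or process these proteins, 7 were higher and 3 lower, with a median log2 fold change of 0.149. Adamts4, an aggrecanase that can also cleave proteoglycans of this family, stood at 3.55, 3.99 and 4.19 FPKM in the CFA libraries, against 1.6, 2.25 and 1.55 FPKM in the saline libraries. Its log2 fold change was 0.82 (SE 0.125, limma unadjusted p = 0.000411). The related Adamts5 was lower, at 9.60, 11.5 and 10.2 FPKM with CFA, against 16.2, 13.8 and 11.9 with saline (limma, unadjusted p = 0.0195). Mmp14, a membrane-bound metalloproteinase, was higher, at 7.11 ± 0.483 FPKM with CFA and 5.32 ± 0.53 with saline (SD, n = 3 each; limma, unadjusted p = 0.00835).

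Enzymes that build the sugar chains showed few differences by this measure. In the list of linker, chondroitin and dermatan sulfate synthesis, 9 of 18 were higher, 9 lower and none had an unadjusted p below 0.05 (median 0.00842). Chst15, a chondroitin sulfotransferase picked after its values were seen, was at 0.133 FPKM in saline replicate 1 and at 4.39 to 5.23 in the other 5 libraries. Among 10 tested genes of keratan sulfate synthesis and tyrosine sulfation, Fut8, the core fucosyltransferase of N-glycans, was lower at an unadjusted p below 0.05, at 14.6 ± 0.832 FPKM with CFA and 18.4 ± 0.921 with saline (SD, n = 3 each; limma adjusted p = 0.347).

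On the side of growth factors and receptors, 17 TGF-beta and BMP genes were tested. The ligand gene Bmp6 was higher (3.99 ± 0.169 FPKM with CFA and 3.11 ± 0.311 with saline) and the signal transducer Smad2 lower (3.30 ± 0.288 with CFA and 5.69 ± 1.77 with saline), each at an unadjusted limma p below 0.05 (SD, n = 3 each). Of 10 tested receptors that bind these proteoglycans, 1 had an unadjusted p below 0.05. This was Igf1r, the insulin-like growth factor receptor that decorin can bind, at 7.28, 7.03 and 6.99 FPKM in the CFA libraries, against 10.5, 8.31 and 9.96 FPKM in the saline libraries. The Toll-like receptor genes Tlr2 and Tlr4 were also picked after their values were seen. They averaged 1 and 0.519 FPKM with CFA and 0.863 and 0.775 with saline. Over all libraries both were below the mean of 1 FPKM needed for the test. Tlr4 stood at 0.663, 0.849 and 0.0463 FPKM in the CFA libraries, against 0.529, 0.844 and 0.953 in the saline libraries. Its lower CFA mean rests on CFA replicate 3.

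**Figure D5:**
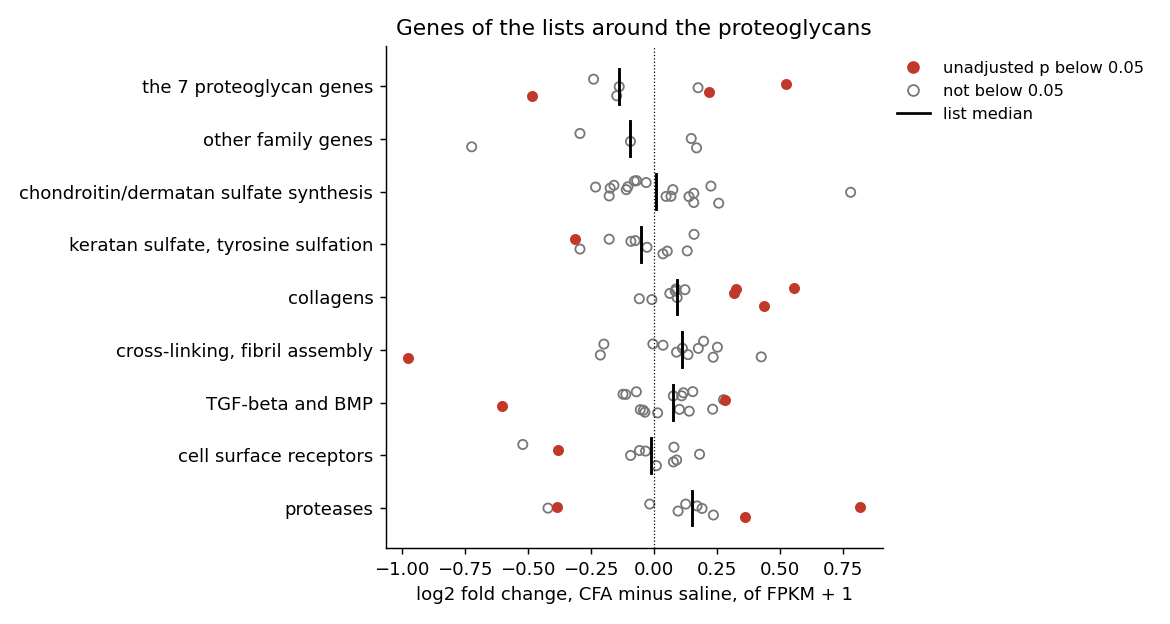
Log2 fold changes (CFA minus saline, of FPKM + 1) of every tested gene of the 7 proteoglycans and the 8 surrounding lists, filled where the unadjusted limma p is below 0.05, with a line at each list's median. The filled collagen genes all lie to the right, at 0.318 to 0.558, while Lox and Ogn lie to the left.

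Markers of cells that could make these transcripts, and of neighbouring tissue, were summed by library. Their lists too were chosen with earlier results known, so counts from them are a description. No fibroblast, leptomeningeal or perineurial marker passed the adjusted threshold. Fibroblast markers outside the family and the collagens summed to 281 to 294 FPKM with CFA and 239 to 243 FPKM with saline. Of 13 tested, 10 were higher and 3 lower. Of these, 4 of the higher and 1 of the lower had an unadjusted p below 0.05, against 8.32% of all genes tested. The mean log2(FPKM + 1) of the fibroblast markers, which weights all markers alike, overlapped, at 3.27 to 3.43 with CFA and 3.17 to 3.29 with saline. Leptomeningeal and dural markers summed to 463 to 517 FPKM with CFA and 303 to 434 FPKM with saline, with 11 of 13 higher and 2 lower. Most of each sum was Ptgds, at 400, 439 and 432 FPKM with CFA and 255, 371 and 346 with saline. An unadjusted p below 0.05 was found in 5 of the higher genes and in 1 of the lower, Angptl7. Angptl7 averaged 5.93 FPKM with CFA and 9.13 with saline. Set against the mean log2 level of the fibroblast markers, Ogn was at 3.84 to 4.23 in CFA libraries and 4.46 to 4.72 in saline libraries, and Fmod at −0.106 to 0.162 in CFA libraries and −0.635 to −0.18 in saline libraries, both without overlap (exact permutation p = 0.1, n = 3 per group). Lum was also lower without overlap on that scale, and Bgn, Dcn, Prelp and Aspn overlapped. With the fibroblast marker mean as a covariate, the log2 fold changes were −0.434 for Ogn (limma, unadjusted p = 0.0509), 0.414 for Fmod (0.115) and 0.172 for Bgn (0.281). Their SEs were 0.175, 0.222 and 0.144 in that fit, against 0.112, 0.144 and 0.0918 without the covariate. The larger p-values thus come in part from wider SEs.

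Satellite glia markers summed to 1664 to 2155 FPKM with CFA and 1131 to 1459 with saline, with 6 of 7 higher. Of the 6, 3 had an unadjusted p below 0.05, against 8.32% of all genes tested. Central nervous system glia markers summed to 231 to 294 FPKM with CFA and 160 to 212 with saline, with 8 of 8 higher. The choroid plexus list summed to 219.8 to 297 FPKM with CFA and 31.5 to 37.1 with saline. Most of that gap lay in its gene Ttr, which averaged 225 FPKM with CFA and 2.08 with saline. Aqp1, the other gene tested, overlapped between the groups. Kl and Clic6 were higher without overlap but too low to be tested. Macrophage markers summed to 228 to 252 FPKM with CFA and 172 to 507 with saline, where the top value holds 396 FPKM of Lyz2 in saline replicate 3. Of the 10 macrophage markers 9 were higher. Of these 9, 7 were without overlap, against 14.5% of all genes tested, and 7 had an unadjusted p below 0.05, against 8.32%. The mean log2(FPKM + 1) of the macrophage markers was 3.87 to 3.90 with CFA and 3.46 to 3.68 with saline. Pericyte, smooth muscle and endothelial markers summed to 63.5 to 66.3 FPKM with CFA and 67.9 to 77.6 with saline. Of 7 tested, 3 were higher and 4 lower, and 1 of the lower, Tagln, had an unadjusted p below 0.05 (limma, 0.0395). Perineurial and endoneurial markers summed to 103 to 116 FPKM with CFA and 98.2 to 113 with saline, with none of 7 perineurial and endoneurial genes at an unadjusted p below 0.05. Schwann cell and myelin markers summed to 2089 to 2394 FPKM with CFA and 2091 to 2900 with saline, with 2 of 7 higher and 5 lower. Cartilage and bone markers summed to 15.8 to 26.1 FPKM with CFA and 16.5 to 23.0 with saline. Red blood cell markers summed to 322 to 435 FPKM with CFA and 185 to 405 with saline, with 5 of 5 higher. No gene tested in the Schwann cell, cartilage and bone or red blood cell lists had an unadjusted p below 0.05. The part of any of these cell types in the values of the 7 genes was not tested. Sensory neuron markers, which define the labelled tissue, summed to 4098 to 4826 FPKM with CFA and 3469 to 4362 with saline. Rank correlations between libraries ran from 0.954 to 0.973, and FPKM totals from 261183 to 275152, which are not read depths.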

How the data were processed

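Poly(A)-selected RNA of trigeminal ganglia was made into libraries with a stranded kit, per the labels' protocols, and 3 CFA and 3 saline libraries were compared. The authors deposited 1 table of FPKM values with 13673 gene rows (1 further line was empty), on build GRCm38 per the submitters' processing notes. For aligner, quantifier and annotation: not given in the sources used here. Read depth is unknown, since low FPKM values did not fall on steps of whole reads, so no counting interval is given and precision rests on 3 libraries a group. The labels do not say which animals a library came from, so p-values measure only the spread between these libraries, which may be technical.

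Genes that averaged 1 FPKM or more were tested as log2(FPKM + 1) with limma 3.58.1 (trended variances) in R 4.3.3, two-sided, with Benjamini-Hochberg adjustment over all 12238 genes and a threshold of 0.05. The fit was run on simulated data as a check of the code. That simulation used independent noise for each gene and no effects shared by a library, so it does not bear on the values of the 7 genes. Single sums and ratios used exact permutation tests (scipy 1.17.1). Gene positions come from GENCODE M21. The 7 genes and all lists were chosen with earlier results of these data known. All 7 are given in full. Of each related list, up to 4 genes with the smallest unadjusted p below 0.05 are named, and for likeness the 2 genes with the highest r per member. Alternatives changed the pseudocount (0.1), filter, scaling, variance model, library weights, covariate, replicate block and the libraries included.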

Additional observations from a re-analysis of the deposited data

How the results depend on the processing

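None of the 7 genes passed an adjusted p of 0.05 in limma under any of the alternatives. Ogn, Fmod, Bgn, Dcn and Prelp kept their direction in all 18, but not their size. Dcn was −0.148, and −0.0149 with the fibroblast marker covariate, −0.0683 without CFA replicate 3 and −0.0653 without both libraries numbered 3. Fmod was 0.524, and 0.309 with library quality weights. Prelp was 0.175, and 0.305 with the weights, 0.101 to 0.299 on leaving out 1 library and 0.421 without both libraries numbered 3. Lum was −0.24, and −0.0673 without CFA replicate 3 and −0.0511 without both libraries numbered 3. Ogn and Fmod had an unadjusted p below 0.05 in 17 of 18, the exception being the fibroblast marker covariate. With that covariate Lum turned to 0.0165, and Aspn turned to 0.136 without saline replicate 3 and to 0.196 without both libraries numbered 3. The cause was not tested. Leaving out 1 library moved the Aspn value between −0.389 and 0.136. Genes of the 7 at an unadjusted p below 0.05 numbered 3, and 5 with library quality weights, 0 with the covariate and 2 to 4 on leaving out 1 library.

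Over all genes, 7 were called, and 13 with robust variances, 266 with library quality weights, 1 with the covariate and 5 to 19 on leaving out 1 library (6, 13 and 13 without CFA replicates 1 to 3, and 19, 12 and 5 without saline replicates 1 to 3). Genes at an unadjusted p below 0.05 numbered 1018, and 626 with a mean of at least 5 FPKM, 3574 with the weights, 590 with the covariate and 614 to 1583 on leaving out 1 library. Samples with the same replicate number deviated together at r = 0.0803, 0.111 and −0.0475, so the numbers were not taken to pair them; with the replicate block 1 gene was called and 2 of the 7 had an unadjusted p below 0.05. The difference in summed FPKM ran from −96.3 to −66.2 on leaving out 1 library.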
